A study of Homo sapiens with 8 samples.

Results

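The comparison described here is between 293T cells carrying a hairpin against Cul4A (Cul4Ash) and 293T cells carrying a control hairpin (NCsh). Its members were chosen by sample title: 2 arrays of Cul4Ash and 2 of NCsh, 4 of the 8 arrays in the study. The other 4 arrays, 2 with a hairpin against H1.2 (H1.2sh) and 2 with one against PAF1 (PAF1sh), entered the same fit. All groups are 293T, a human embryonic kidney line that stably carries the SV40 large T antigen, which binds p53 and the retinoblastoma protein. Total RNA was hybridised to Illumina bead arrays. The labels give 1 hairpin name for each target and name no rescue, time after hairpin delivery or separate cultures, so the errors reflect how far arrays of 1 group lie apart, possibly for technical reasons alone, and an effect of a hairpin on other transcripts cannot be told apart from loss of its target.

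CUL4A encodes a cullin, the scaffold of the CRL4 ubiquitin ligases. The scaffold holds a RING protein (RBX1), which brings the ubiquitin-charged enzyme, and an adaptor (DDB1), onto which exchangeable receptors of the DCAF family dock to select substrates. Attachment of NEDD8 activates the ligase and the COP9 signalosome removes it. CRL4 ligases are known for degrading the licensing factor CDT1 and the CDK inhibitor p21 in S phase and for acting on histones at sites of DNA damage. CUL4B is a close paralogue that shares most of these partners.

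Levels are given as log2 of the array intensity after quantile normalization, for the brightest kept probe of a gene. A gene was called when its Benjamini-Hochberg adjusted p in limma, fitted over 12300 genes and 8 arrays, was under 0.05. Cul4Ash differed from NCsh in 2539 genes, 20.6% of those tested. Of these, 1358 were higher (11% of all genes) and 1181 lower (9.6%). Most changes were small: the median size among called genes was 0.388 on the log2 scale, and 27 called genes were higher and 73 lower by at least 2-fold. The arrays of both groups did not overlap for any called gene, but neither did they for 60.9% of all genes tested. The division into higher and lower depended on the scaling between arrays: higher genes made up 53.5% of calls after quantile normalization, 28.2% (503 of them against 1279 lower) after median scaling, and 41.8% (571 against 794) without either. Median scaling moved the median of all genes to -0.0562.

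The sizes of the falls had an unusual distribution, which bears on every large fall given below. From 0.6 to 0.7 on the log2 scale, 15 genes were lower and 86 higher, whereas from 0.9 to 1 there were 58 lower and 15 higher. Past 0.5 the numbers were near each other, 321 lower and 334 higher, but past 0.8 there were 188 lower and 68 higher. The sparse band is little wider than the error of a single gene's change (median SE 0.0894). The band was also present without normalization, where 8 genes were lower and 68 higher by 0.6 to 0.7. Between single Cul4Ash and NCsh arrays it was shallower, with 58 to 71 genes lower by 0.6 to 0.7. H1.2sh minus NCsh had a like band from 0.5 to 0.6, with 25 genes lower and 86 higher. The counts by 0.6 to 0.7 were less uneven in PAF1sh minus NCsh (232 lower and 162 higher), Cul4Ash minus H1.2sh (68 and 100) and Cul4Ash minus PAF1sh (203 and 232). The cause was not tested.

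The scanner table gives a second measurement that bears on the large falls. Within 1 array a lower signal cannot have a smaller detection p-value, the p-value of a probe's signal against negative controls. This order held for every probe of both NCsh arrays. On Cul4Ash replicate 1, 87 probes broke it, 79 of them with a signal too low for their p-value. In the column whose values match Cul4Ash replicate 2 (it is named H1.2sh replicate 2), 60 broke it, and all 60 were too low. The count was 58 on H1.2sh replicate 1, and 8 and 7 on the PAF1sh arrays.

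Only probes near background can be checked in this way on Cul4Ash replicate 1, where brighter probes share a p-value of 0. Of 37 tested genes with a p-value above 0 there that were lower than NCsh by at least 0.7, 37 were out of order. Of 3990 such genes that changed by less than 0.5, 0 were, and of 3 that were higher by at least 0.7, 0 were. SLC6A9, a glycine transporter, had a signal of 103 with a detection p-value of 0.00909, which other probes of that array reached at 157 to 159. On the scanner scale its change as deposited was -1.06, and the change at the signal its p-value stands for was -0.45 to -0.43. Over the 38 genes out of order with a p-value above 0, the median change was -0.719 as deposited and -0.454 to -0.425 at the signals their p-values stand for.

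A further set of signals was written with at least 8 digits, which no signal of the NCsh or PAF1sh columns had. H1.2sh replicate 1 had 29 such signals, so the mark is not particular to Cul4Ash. There were 28 on Cul4Ash replicate 1 and 31 in the column matching replicate 2, among them every probe of CUL4A (3 of 3), DIAPH1 (2 of 2) and ASNS (2 of 2). In all, 60 tested genes had either mark on a Cul4Ash array, 58 of them called lower and 0 called higher. They included 27 of the 73 genes called lower by at least 2-fold. Taking the 60 genes off the calls, without a new fit, left 1123 genes called lower.

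How the marked signals arose was not tested. The sizes of falls of 0.6 or more (259 of the 1181) are uncertain, whether a gene is marked or was too bright to check, and are given below as deposited values. The differences from H1.2sh and PAF1sh use the same Cul4Ash values and so are no check on them. The 922 smaller falls were 7.5% of all genes tested.

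**Figure D1:**
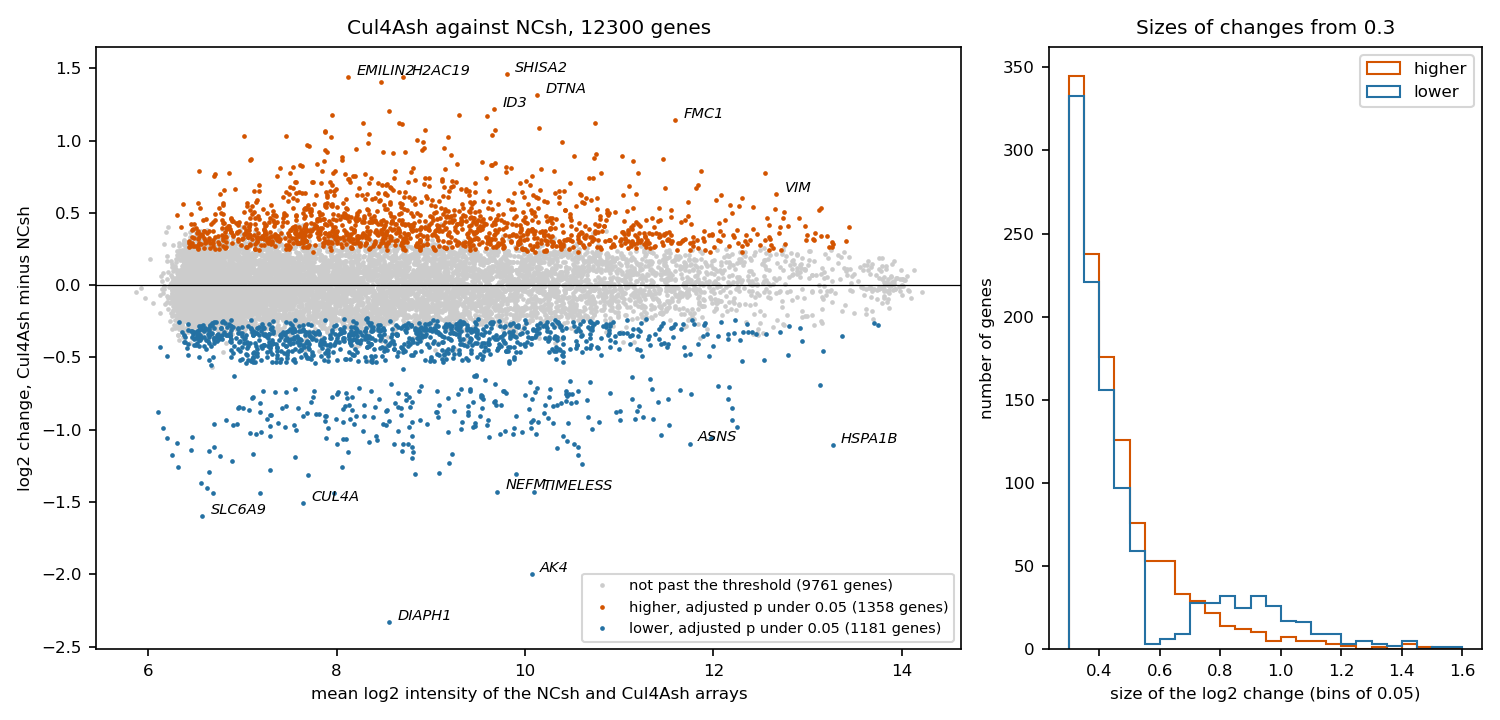
Left, log2 change of each of 12300 genes (Cul4Ash minus NCsh) against its mean log2 level on the 4 arrays, with called genes coloured. Right, the number of genes by size of change from 0.3 upward in bins of 0.05, higher and lower drawn separately: the lower genes have a sparse band near 0.6 that the higher genes do not have, and outnumber them past 0.8 (188 against 68).

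CUL4A, the target, was at 8.46 and 8.33 on the NCsh arrays and at 6.91 and 6.88 on the Cul4Ash arrays. As deposited it was 2.84-fold lower (log2 change -1.51 ± 0.08 SE, limma adjusted p = 6.93e-06). The H1.2sh arrays were at 8.38 and 8.44 and the PAF1sh arrays at 8.48 and 8.63, so the Cul4Ash arrays alone were low. The probe is marked for both order and digits on Cul4Ash replicate 1. On the scanner scale its change there was -1.23 as deposited and -1.21 to -1.09 at the signal its detection p-value stands for, so the target was lower by either reading. A second probe was not above background on that array. Background remains in the intensities, which can make changes in unmarked signals smaller than those of the RNA. For a marked signal, as here, whether the deposited change is larger or smaller than that of the RNA was not tested. CUL4B was at 8.38 and 8.08 in NCsh and at 8.05 and 8.21 in Cul4Ash, with overlapping arrays (log2 change -0.10 ± 0.12, adjusted p = 0.589).

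The rest of the ligase moved little. Of 53 measured genes of the CRL4 list, 10 rose and 2 fell, CUL4A included. The list's median change was 0.0249 against -0.00154 over all genes, and 18.9% of members rose against the 11% of all genes. RBX1, the RING subunit, rose by 0.30 ± 0.10 (adjusted p = 0.0496), close to the threshold. DDB1, the adaptor, was at 12.72 and 12.79 in NCsh and at 12.94 and 12.91 in Cul4Ash, a change of 0.17 that did not pass the test (adjusted p = 0.132).

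Among 27 substrate receptors, 7 rose and none fell at this threshold. BRWD1 rose most, by 0.80 ± 0.10, and by 0.37 on a second probe. Its other probes changed by -0.22 and -0.28, did not pass and were not above background on Cul4Ash replicate 1. DCAF5 rose by 0.47, DDB2, the UV-damage receptor, by 0.43, and DCAF12 by 0.42. Of the signalosome, COPS6 rose by 0.52 and GPS1 by 0.33. UBE2F, an enzyme that transfers NEDD8, fell by 0.27. With median scaling 4 members of the CRL4 list rose and 2 fell, so most of the small rises depend on the scaling.

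CUL5 and CUL2, scaffolds of other cullin ligases, fell by 0.46 and 0.28, and the other 4 cullins measured did not pass. CRL4 acts on proteins. Of 16 measured transcripts of its known substrates, 2 rose and 2 fell (12.5% each), near the 11% and 9.6% of all genes. CDKN1A, which encodes p21, was at 10.76 and 10.70 in NCsh and at 11.44 and 11.27 in Cul4Ash (0.62 ± 0.08, adjusted p = 0.000668). The PAF1sh arrays were higher still, at 12.10 and 12.19. Its differences from H1.2sh and PAF1sh were 1.09 and -0.79, and both passed. DDIT4, an inhibitor of mTORC1 signalling, was at 11.14 and 11.30 in NCsh and at 9.98 and 9.99 in Cul4Ash (-1.23 ± 0.08, adjusted p = 1.42e-05), with differences of -1.24 and -0.62 from H1.2sh and PAF1sh. MERTK fell by 0.32 on its brightest probe, which passed in 4 of 11 alternatives, and its other probe changed by -0.05 and did not pass.

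The largest deposited fall was in DIAPH1, a formin that nucleates and elongates actin filaments. DIAPH1 was at 9.71 and 9.73 in NCsh and at 7.31 and 7.48 in Cul4Ash, 5.02-fold lower (-2.33 ± 0.08, adjusted p = 6.7e-07). Its differences from H1.2sh and PAF1sh were -2.52 and -2.33, so the Cul4Ash arrays alone were low, and a second probe fell by 1.501. Both DIAPH1 probes are marked for their digits on both Cul4Ash arrays. TIMELESS, which protects replication forks, was also lowest on the Cul4Ash arrays. It was at 10.83 and 10.79 in NCsh and at 9.37 and 9.39 in Cul4Ash (-1.43 ± 0.07), with differences of -1.54 and -1.90 from H1.2sh and PAF1sh.

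SLC6A9, WSCD1, ME1, RBM47, RNU4-2 and MYO3B, all among the 16 largest falls, were out of order on both Cul4Ash arrays. RBM47, an RNA-binding protein, changed by -1.40 as deposited. On the scanner scale of Cul4Ash replicate 1 that was -0.92, against -0.45 to -0.43 at the signal its p-value stands for. The class III myosin MYO3B was at -0.85 on that scale as deposited and at -0.23 to -0.21 by its p-value, the spliceosomal RNA RNU4-2 at -1.10 and -0.45 to -0.44, and WSCD1 at -1.02 and -0.45 to -0.40. By their p-values SLC6A9, RBM47, MYO3B, RNU4-2 and WSCD1 were lower than NCsh on that array by much less than as deposited. ME1 had a detection p-value of 0 there, which stands for a wide range of signals, so no such change can be given for it.

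AK4, a mitochondrial adenylate kinase, had the second largest deposited fall, from 11.13 and 11.001 in NCsh to 9.05 and 9.09 in Cul4Ash (-1.998 ± 0.08). The PAF1sh arrays were lower still, at 8.36 and 8.34. The fall rests on 1 probe: the other 3 probes of AK4 changed by -0.14, -0.29 and -0.30, and of these -0.29 alone passed the test. AK4 was also the only one of 4 measured adenylate kinases to pass. HINT3, a nucleotide hydrolase, fell by 1.31 on its brightest probe, with differences of -1.07 and -1.05 from H1.2sh and PAF1sh, while its other probe changed by -0.21 and did not pass.

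Several genes that were far below NCsh were as low or lower in another group. CXCL16, a chemokine, was at 8.71 and 8.68 in NCsh, at 7.32 and 7.18 in Cul4Ash and at 7.18 on both PAF1sh arrays, a difference of 0.07 from PAF1sh that did not pass (adjusted p = 0.497). MGAT3, a glycosyltransferase, fell by 1.31 and did not pass against H1.2sh or PAF1sh (-0.26 and 0.14). NEFM, the medium neurofilament protein, fell by 1.43 from NCsh but was 0.69 higher than in PAF1sh. SPINT2, a protease inhibitor, and NDRG1, a hypoxia- and stress-induced gene, fell by 1.30 each and were also called lower than in H1.2sh and PAF1sh. ME1, malic enzyme, was out of order on both Cul4Ash arrays, which lay apart at 6.16 and 6.77.

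**Figure D2:**
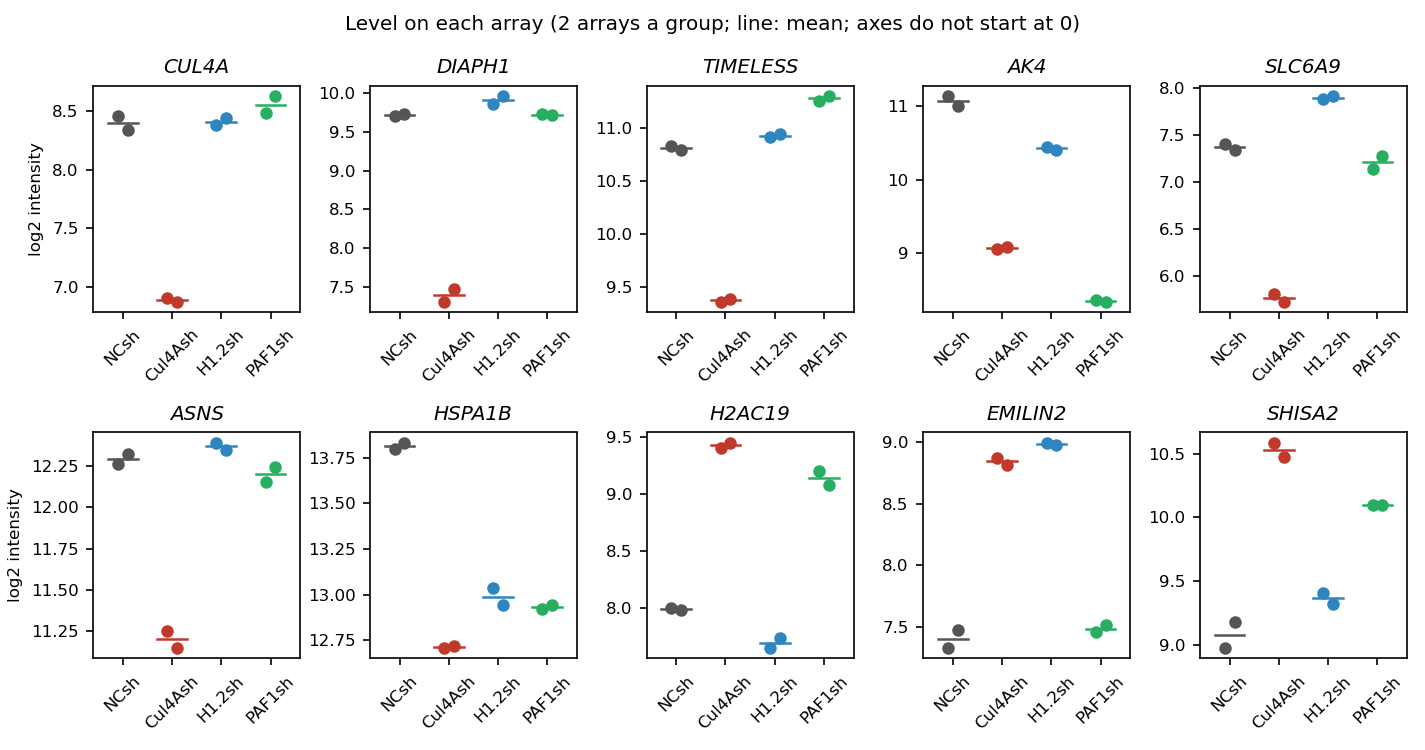
Log2 intensity of 10 genes on each of the 8 arrays (points), with the mean of each group (line); the axes do not start at 0. CUL4A, DIAPH1, TIMELESS, SLC6A9 and ASNS are lowest on the Cul4Ash arrays (all but TIMELESS carry marked scanner signals there), AK4 is lowest on the PAF1sh arrays, HSPA1B is highest on the NCsh arrays, H2AC19 is high in Cul4Ash and PAF1sh, and EMILIN2 is high in Cul4Ash and H1.2sh.

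SHISA2, which restrains Wnt and FGF receptors, rose most. It was at 8.97 and 9.18 in NCsh and at 10.59 and 10.48 in Cul4Ash (1.46 ± 0.09, adjusted p = 1.05e-05), above H1.2sh by 1.17 and PAF1sh by 0.44. DTNA, a dystrophin partner, was at 9.53 and 9.41 in NCsh and at 10.74 and 10.84 in Cul4Ash, and was higher than in all other groups, by 1.32, 0.84 and 1.74 against NCsh, H1.2sh and PAF1sh. SEMA6A, a guidance cue, rose by 1.18, and was 0.45 and 0.998 above H1.2sh and PAF1sh.

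NFIB, a transcription factor, rose by 1.12 (0.55 and 0.64 above H1.2sh and PAF1sh), and UQCC5, an assembly factor of respiratory complex III, by 1.12 (0.73 and 0.71). BASP1, a membrane-bound cortical protein, rose by 1.17. FMC1, an assembly factor of the ATP synthase, rose by 1.14 on its brightest probe and by 0.94 on another, but fell by 0.99 on the third.

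In other genes another hairpin group stood as high. EMILIN2, a matrix glycoprotein, was at 7.33 and 7.48 in NCsh and at 8.87 and 8.81 in Cul4Ash (1.44 ± 0.08), with a difference of -0.14 from H1.2sh that did not pass (adjusted p = 0.24). CPS1, the first enzyme of the urea cycle, rose by 1.18, with a difference of 0.11 from PAF1sh that did not pass. MBNL1, a splicing regulator, rose by 1.11 and did not pass against H1.2sh (0.27, adjusted p = 0.067).

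The 3 comparisons share the Cul4Ash arrays. Against H1.2sh, 22.6% of all genes were called, and against PAF1sh 41%.

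**Figure D3:**
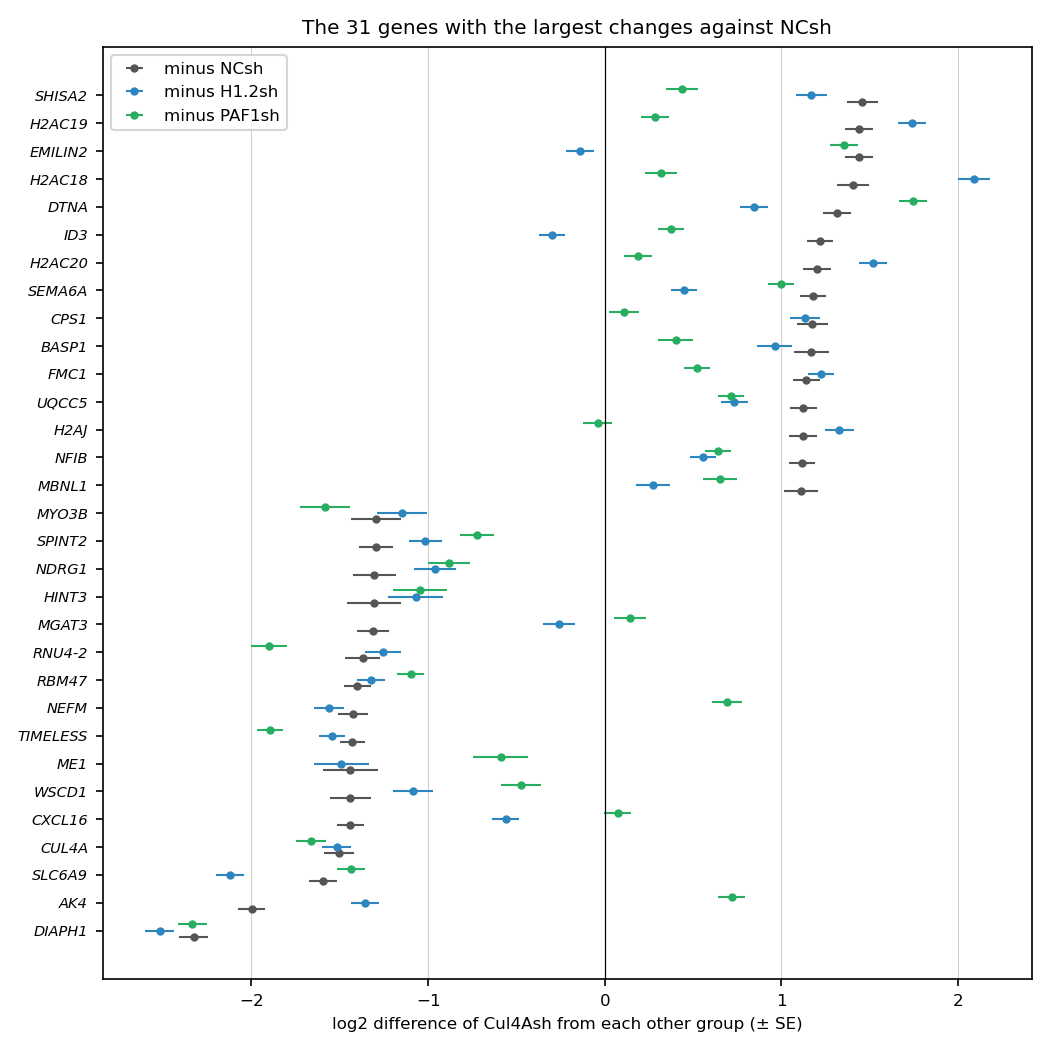
Log2 difference of Cul4Ash from NCsh, H1.2sh and PAF1sh (point ± SE) for the 15 genes that rose most and the 16 that fell most against NCsh. All values are as deposited, marked genes included. The differences of DIAPH1 from the 3 groups lie between -2.52 and -2.33, while AK4, NEFM, CXCL16 and EMILIN2 have differences on both sides of 0; the 3 sets of differences share the Cul4Ash arrays.

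Core histone genes rose. Of 61 listed, 28 were measured, the others having no probe that passed the filter. Of the 28, 14 rose (50%, against 11% of all genes) and 0 fell, with a median change of 0.32 against -0.00154 over all genes. By type, 5 of 8 H2A genes and 5 of 6 H2B genes rose, against 1 of 6 H3 and 3 of 8 H4 genes. The transcripts of these genes normally end in a stem-loop without a poly(A) tail, and labelling of array RNA commonly starts from poly(A), so their array levels can also depend on the tail; this was not tested.

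H2AC19 was at 7.998 and 7.98 in NCsh and at 9.41 and 9.45 in Cul4Ash (1.44 ± 0.08, adjusted p = 6.93e-06). H2AC18 was at 7.83 and 7.71 in NCsh and at 9.09 and 9.25 in Cul4Ash (1.40 ± 0.09), and its second probe rose by 1.17. H2AC18 and H2AC19 are near-identical copies whose signals may not be separable. H2AC20 rose by 1.203, H2AC6 by 1.03, H2BC11 by 0.97 and H2AC25 by 0.92. The gap was larger against H1.2sh for H2AC19 (1.74) and H2AC20 (1.52). Against PAF1sh it was smaller: 0.29 for H2AC19, 0.32 for H2AC18, 0.29 for H2AC6 and 0.39 for H2BC11. H2AC20 did not pass against PAF1sh (0.19, adjusted p = 0.0877), and H2AC25 was lower than in PAF1sh (-0.61).

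The brightest core histone gene, H2BC12, was at 12.41 and 12.26 in NCsh and at 12.77 and 12.83 in Cul4Ash (0.47 ± 0.08, adjusted p = 0.00295). With median scaling 11 of the 28 rose and 0 fell, with no normalization 12 rose and 0 fell, and without NCsh replicate 2 13 rose and 1 fell. H2AJ, a variant gene whose transcripts are polyadenylated, rose by 1.12 and did not differ past the threshold from PAF1sh (-0.04). Among the other replacement variants H2AX rose by 0.34, H2AZ2 by 0.29 and CENPA by 0.27, and H3-3B fell by 0.34. None of 3 linker histone genes measured passed. Of 15 genes that process histone mRNA, ZNF473 and YY1AP1 rose and UPF1 and TUT7 fell, TUT7 by at least 1.28-fold.

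The promoters of core histone genes are shown because the list holds 14 rises and no fall. The octamer ATTTGCAT, searched on both strands in 250 bases before and 50 after the start of transcription (RefSeq, GRCh38.p14), was present in 6 of 14 promoters of genes that rose (42.9%), in 3 of 12 of those that did not pass (25%) and in 1.35% of promoters of all genes tested. In 4 of the 5 H2B genes that rose it starts 46 to 49 bases before the start of transcription, and H2BC5, which also rose, lacks it. H2AC6 and H2AC20, which rose, hold it on the opposite strand at -130 and -197. H2BC4, which did not pass, holds it 123 bases before. H2AC17 and H2AC11, which did not pass either, hold it at -98 and, on the opposite strand, -208. The octamer and CCAAT positions of H2AC6 and H2BC4 mirror each other, as for a stretch of DNA read from both strands. The same holds for H2AC20 and H2BC21, and for H2AC11 and H2BC11. The counts therefore hold some octamers more than once. In part these are shared between a gene that rose (H2AC6, H2BC11) and a gene that did not pass (H2BC4, H2AC11). A link between its position and the change was not tested. The octamer is in capitals.
H2BC11, chr6:27132800-27132877, minus strand: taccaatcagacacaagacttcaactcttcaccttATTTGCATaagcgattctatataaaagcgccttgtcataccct
H2BC12, chr6:27146862-27146939, minus strand: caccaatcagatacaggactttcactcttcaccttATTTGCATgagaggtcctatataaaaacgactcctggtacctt
H2BC18, chr1:149812377-149812454, minus strand: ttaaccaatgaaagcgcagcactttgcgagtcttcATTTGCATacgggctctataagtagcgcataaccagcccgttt
H2BC21, chr1:149886686-149886763, minus strand: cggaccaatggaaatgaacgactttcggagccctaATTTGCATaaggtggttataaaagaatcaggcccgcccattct
H2BC4, chr6:26124007-26124084, minus strand: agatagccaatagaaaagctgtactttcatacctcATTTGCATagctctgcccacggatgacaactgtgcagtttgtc

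The letters CCAAT were in 11 of 14 promoters of the genes that rose (78.6%), in 8 of 12 of those that did not pass (66.7%) and in 37.2% of promoters of all genes tested. Promoters with mirrored positions count more than once here too. The promoters of H2AC18 and H2AC19 were identical at 299 of 299 bases after an offset of 1 base. The stretch below, with CCAAT or its reverse complement in capitals, is therefore the same for both.
H2AC18, chr1:149842779-149842882, minus strand: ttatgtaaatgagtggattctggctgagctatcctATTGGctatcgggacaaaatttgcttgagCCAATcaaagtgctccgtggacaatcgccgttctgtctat

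Genes of the amino acid response were lower. ATF4 is a transcription factor that is translated more when amino acids are short or proteins misfold, and induces amino acid synthesis and uptake. Of 43 measured genes of this list, 22 fell and 3 rose, 51.2% lower against 9.6% of all genes, with a median change of -0.263. Of the 22 falls 10 were of 0.6 or more and 12 smaller. Leaving out 1 array left 14 to 17 falls, with 14 without NCsh replicate 1 and 14 without Cul4Ash replicate 1. ATF4 itself was at 13.48 and 13.61 in NCsh and at 13.18 and 13.21 in Cul4Ash (-0.35 ± 0.08, adjusted p = 0.0107).

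ASNS, asparagine synthetase, was at 12.26 and 12.32 in NCsh and at 11.25 and 11.15 in Cul4Ash (-1.10 ± 0.08, adjusted p = 2.13e-05). Its second probe fell by 0.97, and both probes are marked for their digits. Besides SLC6A9 (out of order) and DDIT4, STC2, a secreted glycoprotein, fell by 1.10, and SLC7A5, a leucine transporter, by 1.03. SLC7A5 did not pass against PAF1sh (-0.13, adjusted p = 0.22).

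The genes of cystathionine synthesis and cleavage, CBS and CTH, fell by 0.97 and 0.99, and PSAT1, of serine synthesis, by 0.83. PCK2, mitochondrial PEP carboxykinase, fell by 1.04 on 1 probe and by values that did not pass on the other pair (-0.21 and -0.09). The 3 genes that rose were ATF3 (0.38), SLC43A1 (0.37) and PHGDH (0.34), the first enzyme of serine synthesis. With median scaling 21 fell and 0 rose, and with no normalization 19 fell and 1 rose. Of 18 cytosolic aminoacyl-tRNA synthetases, 2 fell (GARS1 by 0.93, with -0.07 against H1.2sh that did not pass, and NARS1 by 0.39) and 3 rose (FARSA by 0.53, HARS1 by 0.38 and QARS1 by 0.31).

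The composite element to which ATF4 binds, searched as TGATGNAA on both strands, was in 3 of 20 promoters of the genes that fell (15%), in 4 of 14 of those that did not pass (28.6%), in 1 of the 3 that rose and in 1.75% of promoters of all genes tested. The promoters of the 3 genes that fell are shown with it in capitals. In CHAC1 it lies on the opposite strand.
ASNS, chr7:97872434-97872511, minus strand: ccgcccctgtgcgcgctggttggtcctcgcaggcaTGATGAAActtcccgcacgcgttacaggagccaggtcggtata
MTHFD1L, chr6:150866322-150866399, plus strand: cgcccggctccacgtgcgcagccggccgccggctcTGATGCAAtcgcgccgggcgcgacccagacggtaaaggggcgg
CHAC1, chr15:40953227-40953304, plus strand: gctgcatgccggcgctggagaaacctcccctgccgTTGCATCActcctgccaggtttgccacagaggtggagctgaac

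Heat-inducible chaperones were lower too, as deposited. Of 21 measured, 9 fell and 1 rose, 42.9% lower against 9.6% of all genes, with a median change of -0.247. Of the falls 7 were of 0.6 or more, so most are of uncertain size. The smaller falls were 2 of the 21 members, beside 7.5% of all genes tested. HSPA1B, an inducible HSP70, was among the brightest genes of the array, at 13.80 and 13.83 in NCsh and 12.71 and 12.72 in Cul4Ash (-1.10 ± 0.07, adjusted p = 1.42e-05). All other groups were also below NCsh for this gene: the H1.2sh arrays were at 13.04 and 12.94 and the PAF1sh arrays at 12.92 and 12.94, and Cul4Ash was only 0.28 and 0.22 lower than these.

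HSPA6 and HSPA1A, the latter nearly identical to HSPA1B, were out of order on both Cul4Ash arrays. BAG3, a cochaperone of HSP70, was at 10.78 and 10.77 in NCsh and at 9.88 and 9.77 in Cul4Ash (-0.95 ± 0.07), and lay 0.77 and 0.70 below H1.2sh and PAF1sh. HSPH1 fell by 0.75 (-0.38 and -0.32 against H1.2sh and PAF1sh) and DNAJB1 by 0.73 (-0.05 and -0.75, the former not past), and the small chaperone HSPB1 rose by 0.53. The letters TTCNNGAA, a core of the heat shock element, were in 2 of 9 promoters of the genes that fell (22.2%), in 2 of 9 of those that did not pass (22.2%) and in 6.09% of all tested. Of 20 genes of folding in the endoplasmic reticulum, 3 fell (PDIA4, which is out of order, DNAJB9 by 0.75 and XBP1 by 0.44) and 2 rose (PDIA6 by 0.56 and SYVN1 by 0.42).

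Hypoxia targets outside glycolysis were mostly lower. Among 15 hypoxia targets outside glycolysis, 8 fell (53.3%, against 9.6% of all genes) and 1, BNIP3L, rose, with a median of -0.298. Of the 12 falls in the joint list of glycolysis and hypoxia, 5 were of 0.6 or more and so of uncertain size. AK4 and NDRG1 led, and ADM, a vasodilator peptide, fell by 0.71 but differed from H1.2sh and PAF1sh by amounts that did not pass (adjusted p = 0.998 and 0.848). Among 20 genes of glycolysis, 4 fell and 6 rose, with a median of -0.017, and the difference between both groups was not tested. SLC2A1, a glucose transporter, was at 10.54 and 10.58 in NCsh and at 9.60 and 9.55 in Cul4Ash (-0.99 ± 0.08, adjusted p = 2.98e-05), and PFKFB4, which sets fructose 2,6-bisphosphate, fell by 0.94. The enzymes GPI (0.59), PGAM1 (0.50), PFKM (0.38), ALDOA (0.35), TPI1 (0.32) and PKM (0.27) rose. The differences from H1.2sh were 0.15 for SLC2A1 and 0.50 for PFKFB4, and from PAF1sh 0.52 and 0.06, and those of 0.15 and 0.06 did not pass. With median scaling 12 members of the joint list fell and 2 rose, so the rises of the enzymes depend on the scaling. The letters ACGTG, the core of the hypoxia response element, were in 5 of 9 promoters of members that fell (55.6%), in 7 of 14 of those that did not pass (50%) and in 27% of all tested.

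**Figure D4:**
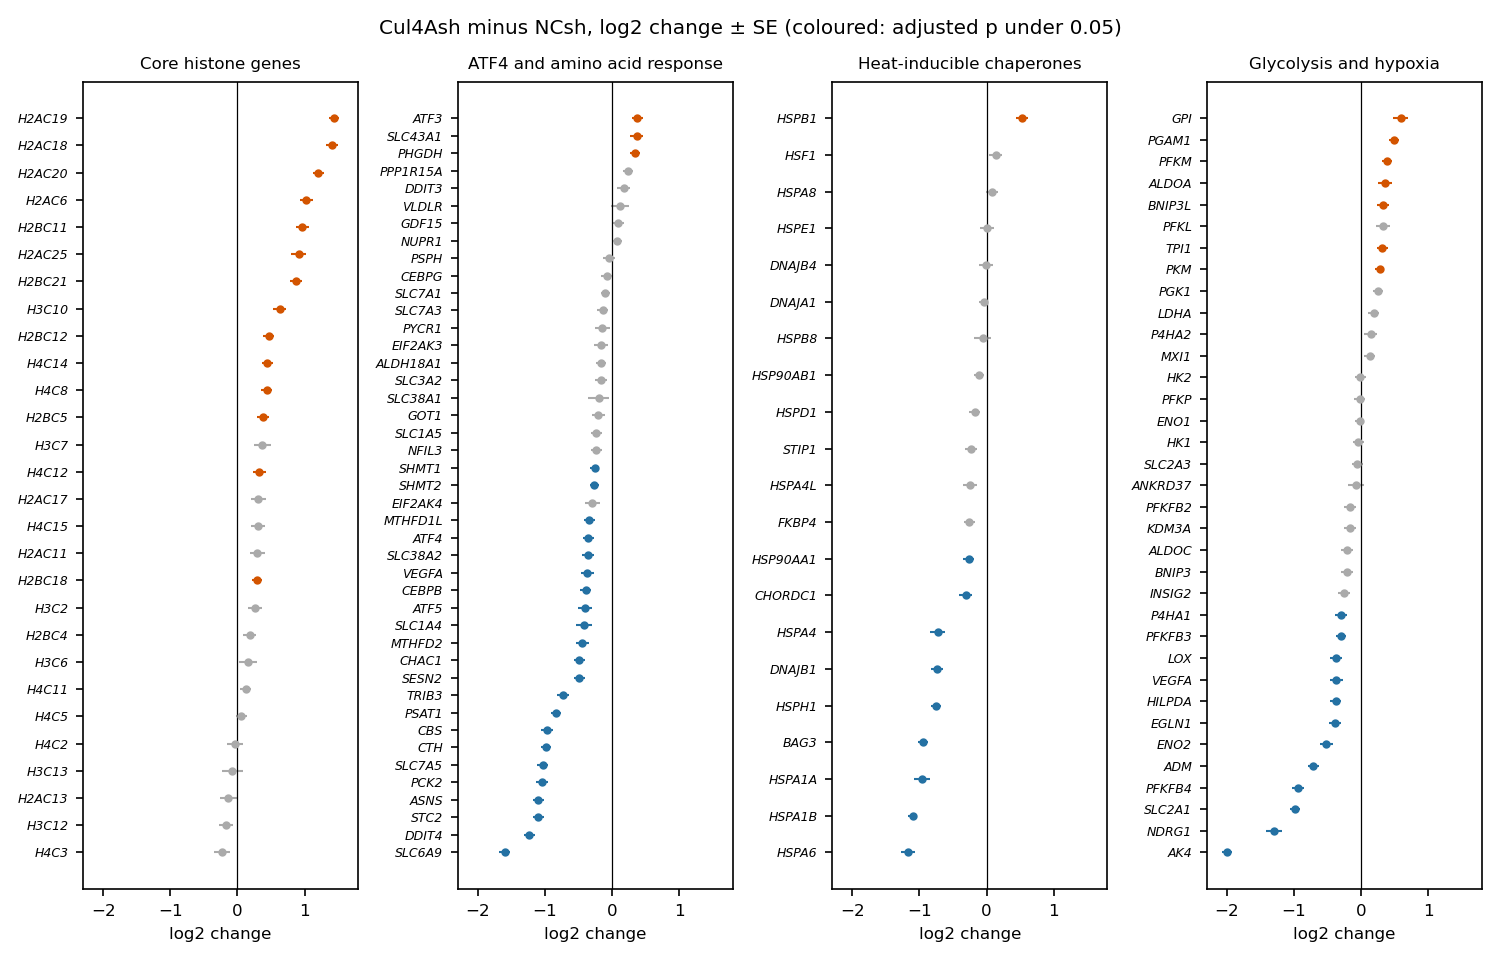
Log2 change (Cul4Ash minus NCsh, ± SE) of every measured member of 4 gene lists, coloured where the adjusted p was under 0.05. Of 28 core histone genes 14 rose and 0 fell; of 43 genes of the amino acid response 22 fell and 3 rose; of 21 heat-inducible chaperones 9 fell and 1 rose; of 35 genes of glycolysis and hypoxia 12 fell and 7 rose.

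Subunits of oxidative phosphorylation rose slightly. Of 71 measured, 22 rose and 0 fell, 31% higher against 11% of all genes, with a median of 0.201. UQCR10, of complex III, was at 10.22 and 10.36 in NCsh and at 11.24 and 11.10 in Cul4Ash (0.88 ± 0.10, adjusted p = 0.000283). The next largest were ATP5MC1 (0.59), NDUFA11 (0.54) and COX8A (0.53). With median scaling 5 rose, beside 503 of all 12300 genes, and leaving out single arrays left 8 to 13. The number of rises therefore depends on the scaling and on single arrays. The mitochondrial ribosome did not move one way, with 10 of 76 genes higher and 7 lower. MRPL10 fell by 0.96 on 1 probe, and its other probe changed by 0.07. Of 53 cytosolic ribosomal proteins, 6 fell and 1 rose, with a median of -0.0264, but 0 fell without Cul4Ash replicate 1, 1 without NCsh replicate 2 and 2 without either other array.

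In lipid synthesis 7 of 27 genes fell (25.9%, against 9.6% of all genes) and 2 rose (7.41%, against 11%). INSIG1, which retains the sterol sensor SCAP, was at 10.93 and 10.88 in NCsh and at 9.77 and 9.79 in Cul4Ash (-1.12 ± 0.08), and its second probe fell by 0.53. Its differences from H1.2sh and PAF1sh were -0.29 and -0.63. HMGCS1 fell by 0.48 and SCD by 0.42, and ACAT2 rose by 0.42.

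Genes of the cell cycle rose in small numbers. In the replication list 8 of 44 rose (18.2%, against 11% of all genes) and 0 fell. TK1 (0.69 ± 0.08) and MCM5 (0.60 ± 0.09) led, and neither passed against H1.2sh or PAF1sh. In the list of G2 and mitosis 10 of 52 rose (19.2%) and 1 fell. CENPF, a kinetochore protein, was at 9.13 and 9.14 in NCsh and at 10.18 and 10.17 in Cul4Ash (1.04 ± 0.08), and CDC25C rose by 0.69. With median scaling 2 rose and 2 fell in each list, so the direction of these lists depends on the scaling. Besides CDKN1A, RBL2 (0.56) and CCND2 (0.52) rose among 13 cyclins D and CDK inhibitors and none fell. The CCND2 difference was -0.33 from H1.2sh and 2.26 from PAF1sh. Of 20 p53 targets 6 rose (30%) and 5 fell (25%), against 11% and 9.6% of all genes.

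In the list of ID genes and TGF-beta or BMP targets 7 of 18 rose (38.9%, against 11% of all genes) and 1 fell. With median scaling 6 rose and 1 fell. ID3, which blocks bHLH factors, was at 9.04 and 9.08 in NCsh and at 10.32 and 10.24 in Cul4Ash (1.22 ± 0.07), below H1.2sh by 0.30 and above PAF1sh by 0.38. BAMBI rose by 0.80, SMAD6 by 0.74, SNAI2 by 0.64 and ID1 by 0.61, and ID2 fell by 0.75, with differences of -0.18 and -0.05 from H1.2sh and PAF1sh that did not pass. SMAD6 was also higher than in H1.2sh and PAF1sh (0.49 and 0.79). BAMBI did not pass against either (0.29 and -0.02). SNAI2 did not pass against H1.2sh (0.03) and was lower than in PAF1sh (-0.89).

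Besides DIAPH1, the actin nucleators WASF3 and COBL fell by 1.15 and 0.45, and ARPC1A, ARPC4 and FHOD1 rose by 0.45, 0.41 and 0.37. In all, 5 of 25 rose and 4 fell, but 1 rose and 5 fell with median scaling, so the balance depends on the scaling. WASF3 was at 9.41 and 9.37 in NCsh and at 8.30 and 8.17 in Cul4Ash, and did not pass against H1.2sh (-0.12, adjusted p = 0.314). Among 24 neuronal genes, 9 fell (37.5%, against 9.6% of all genes), among them NEFM, and 5 rose (20.8%, against 11%), NCAM1 by 0.39. The synaptic vesicle protein SYP and CRMP1 are out of order. With median scaling 0 rose and 8 fell, and without Cul4Ash replicate 2 0 rose and 5 fell. Of 10 chemokine and NF-kB genes, 3 fell (30%, against 9.6% of all genes) and none rose. NFKB1 was at 10.46 and 10.30 in NCsh and at 9.47 and 9.30 in Cul4Ash (-0.99 ± 0.09). NFKB1 was also lower than in H1.2sh and PAF1sh (-0.71 and -1.08).

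Other lists held few calls or calls in both directions, beside 11% of all genes higher and 9.6% lower. Interferon-stimulated genes had 5 of 23 higher and 4 lower, NRF2 genes 1 of 13 higher and 3 lower, the proteasome 2 of 27 each way, ribosome biogenesis 4 of 30 higher and 2 lower, and lysosome and autophagy 5 of 31 higher and 2 lower. Matrix and adhesion genes had 5 of 36 higher and 1 lower, and actins and SRF targets 5 of 23 higher and 2 lower. LAMP1, a lysosomal membrane protein, rose by 0.53 and is also the next measured gene to CUL4A in RefSeq order. Of the 4 measured genes on each side of CUL4A, LAMP1 and SLC9D1 (0.49) passed and none fell.

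The brightest genes past 1.5-fold were HSPA1B, XPNPEP3 (-0.69 ± 0.13), the intermediate filament VIM (0.63 ± 0.08), the Notch target HES4 (0.77 ± 0.09) and CENPX (0.60 ± 0.08), of the Fanconi core complex and the kinetochore. VIM did not pass against H1.2sh or PAF1sh (0.20 and 0.14).

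**Figure D5:**
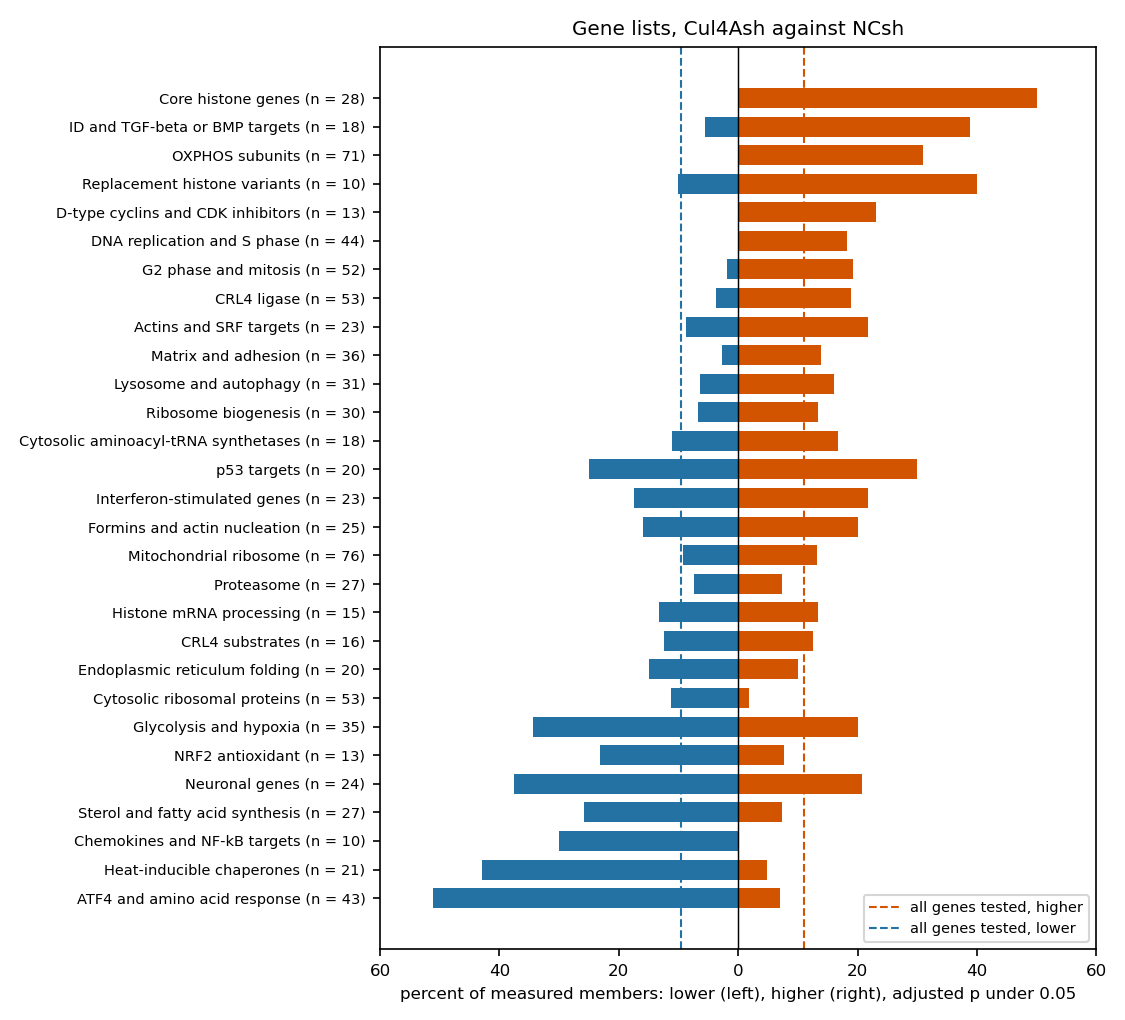
Percent of measured members of each gene list with at least 10 measured genes that were higher (right) or lower (left) in Cul4Ash than in NCsh at adjusted p under 0.05; dashed lines mark the shares over all genes tested (11% and 9.6%). Core histone genes, targets of ID and TGF-beta or BMP and subunits of oxidative phosphorylation lie mostly to the right, and the amino acid response and heat-inducible chaperones mostly to the left.

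Markers of the line were as labelled in part. Of 12 kidney and epithelial markers with a probe, 8 were above background on at least 2 arrays, with PAX2, PAX8 and LHX1 on none. Of 11 blood cell markers 4 were, with PTPRC on none, of 12 endothelial and fibroblast markers 3, and of 6 HeLa and keratinocyte markers 1. Of the measured ones, 1 kidney marker rose and 1 fell, and none of the blood, endothelial or HeLa markers passed. The mean log2 level of the measured blood markers was 7.14 and 7.14 on the NCsh arrays and 7.0 and 7.03 on the Cul4Ash arrays. In RNA of whole cultures, a change in the mix of cells and a change in RNA per cell cannot be told apart.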

How the data were processed

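Gene expression was measured on 8 Illumina bead arrays, 2 a group, with biotinylated cRNA made from total RNA (per the labels' protocols). The authors deposited a matrix of linear intensity per probe for all 8 arrays and a scanner table of signal intensity and detection p-values; their software is not given in the sources used here. Matrix medians were 82.8 to 88.7 and 39.2% to 42.5% of probes were above background on the scanner arrays. Precision is limited by how few arrays there are.

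The names of 2 scanner columns (H1.2sh and Cul4Ash replicate 2) disagree with the matrix, where their values match Cul4Ash and PAF1sh replicate 2; 2 further columns, of PAF1sh replicate 2, are empty and were not used. Groups were taken from sample titles through the matrix, and only Cul4Ash replicate 1 gives detection for Cul4Ash. A level not above background there gives a bound ("at least").

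Intensities were log2 transformed and quantile normalized. Probes with detection p-value under 0.05 on at least 2 of 7 scanner arrays were kept (22131 of 47220), of which 16305 had 1 gene symbol in GEO's platform annotation, for 12300 genes; the brightest probe was used. limma 3.58.1 (R 4.3.3) fitted 4 group means over 8 arrays with Benjamini-Hochberg adjustment over all genes. The fit was checked on simulated data. Named genes are CUL4A, CUL4B and the CRL4 list, the 16 largest called rises and falls, up to 6 called members of each of 36 lists with any needed to show the other direction, and the 5 brightest called genes past 1.5-fold, of which 1 gene is not reported here; members of the octamer, element and probe comparisons and further list members were named after their values were seen. Members and lists were chosen with earlier results of these data known. Alternatives were median scaling, no normalization, no filter, 4 arrays only, a replicate block, a trended prior, the mean of probes, limma's neqc on 5 undisputed scanner arrays, and leaving out each array. The count of genes by size of change was added after the data were seen. Within each scanner array, probes outside the longest run in which signal and detection p-value keep their order were counted, as were signals of 8 or more digits; both were added after the data were seen.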

Additional observations from a re-analysis of the deposited data

How the results depend on the processing

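For Cul4Ash against NCsh (1358 higher, 1181 lower), the count higher was 503 with median scaling, 571 with no normalization and 865 with no filter on dim probes, and the count lower was 716 with no filter. With neqc on 5 scanner arrays, which leaves 1 Cul4Ash array, limma called 0 genes higher and 0 lower, with 3158 at an unadjusted p under 0.05. Leaving out 1 array gave 690 to 892 higher and 599 to 765 lower, fewest higher without NCsh replicate 1 and fewest lower without Cul4Ash replicate 1. Against H1.2sh (1524 higher, 1257 lower), median scaling gave 1002 and 705; the count lower was 431 with no normalization, where 75.5% of calls were higher, and 776 with no filter; leaving out 1 array gave 853 to 944 higher and 616 to 719 lower. Counts against PAF1sh stayed within 1.5 times under every alternative run. The cause of these differences was not tested, beyond the fewer arrays where arrays were left out.

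The replicate block gave 1246 higher and 1073 lower against NCsh. Same-numbered arrays deviated together with r = 0.111 between NCsh and Cul4Ash and r from -0.133 to 0.111 over all 6 pairs of groups, so the numbers were not taken to pair the arrays. Of 203 named genes, none changed direction past the threshold under any alternative; 46 lost the call with median scaling, 53 with no normalization and 182 with neqc on 5 arrays. The sparse band among the falls near 0.6, and the excess past it, was present with and without normalization; falls of 0.6 or more are the least secure values given, since all 37 of at least 0.7 that could be checked were out of order with their detection p-values. Taking the 60 marked genes off the calls, without a new fit, left 1123 lower and 1358 higher (chosen after seeing the data). Groups of 2 arrays and 1 hairpin name for each target limit single-gene values. Probes that disagree within a gene (among them AK4, FMC1, HINT3, PCK2, MRPL10, BRWD1, ZMAT3 and MERTK) limit them too.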
